A study of Rattus norvegicus and Mus musculus with 18 samples.

Results

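The 45 genes described here drive or mark the cell cycle: 8 cyclins, 4 cyclin-dependent kinases, 13 genes of DNA replication, 15 further mitotic genes and division markers, 2 transcription factors and 3 inhibitors of cyclin-dependent kinases. They were chosen by gene symbol, and all 45 were found among the 49548 genes of the mouse table. The whole series held 18 libraries of mouse and rat skin, made by SMART-seq2, a full-length cDNA method that starts from little RNA. The groups compared here were 3 libraries of wound dermis and 3 of wound epidermis from adult mice. Both tissues came from healing skin wounds and were collected on day 1 after the scab had detached, which the study's description places at the time when mouse wounds regrow hair follicles. Both groups were thus wounded, and no unwounded mouse skin was analysed here. The labels name no strain, genotype, sex or treatment, and they do not say whether the libraries of a tissue came from separate animals, so every p-value here measures the spread between these libraries.

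A cell that enters division first raises D-type cyclins, which bind Cdk4 and Cdk6 and inactivate the retinoblastoma protein, so that E2F factors can switch on cyclin E and the replication genes. Cyclins A and B then work with Cdk1 to carry the cell through G2 and mitosis, and the anaphase-promoting complex destroys the mitotic cyclins at its end. Inhibitors such as p21 (Cdkn1a), p27 (Cdkn1b) and p15 (Cdkn2b) hold these kinases back. In the epidermis, division is mostly a property of the basal layer, and keratinocytes leave the cycle as they differentiate on the way to the surface.

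The values were TPM, a gene's share of the transcripts in a library, which are scaled by gene length and so allow levels of different genes to be compared. The depth behind them is unknown, and no counting interval can be given. Dermis libraries held 15958 to 16257 genes at 1 TPM or more, and epidermis libraries held 13117 to 14012. The markers matched the labels of the tissues: all 8 fibroblast markers were lower in epidermis, with summed levels of 44150 to 68650 TPM in dermis and 23.3 to 123.5 TPM in epidermis, and all 8 markers of differentiating keratinocytes were higher. Dermis replicate 2 stood apart, since it held those keratinocyte markers at a summed 16180 TPM, against 999.6 and 426.6 TPM in dermis replicates 1 and 3. Epidermis replicate 3 stood apart for the division genes themselves, as given below. Of the 15982 genes tested, the median log2 difference between epidermis and dermis was -0.42, and the values below are read beside it.

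Most of the 45 genes were lower on average in epidermis, but few of them passed the test. On the scale of log2(TPM + 1), which understates the change of genes near 1 TPM, 42 of the 45 lay below 0, with a median of -0.79. Of all genes tested 64.8% lay below 0, and the counts below 0 given later for the deposited values are read beside that share. All 45 had passed the filter on low values, which asked for 1 TPM or more in 3 or more libraries. Of the 45, 2 were higher in epidermis, against 17% of all genes tested, and 7 were lower, against 39.3% of all genes (limma, Benjamini-Hochberg adjusted p under 0.05). Together that made 9 of 45 past the threshold, where 56.3% of all genes passed. The libraries of both tissues did not overlap for 11 of the 45 genes, against 66% of all genes. The share of the 45 that passed was thus below that of the table with all 6 libraries, and above it without epidermis replicate 3, where 32 were lower and 1 higher and 55% of all genes passed. In whole tissue, fewer cells of a type and less RNA per cell cannot be told apart, and this holds for every difference below.

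**Figure D1:**
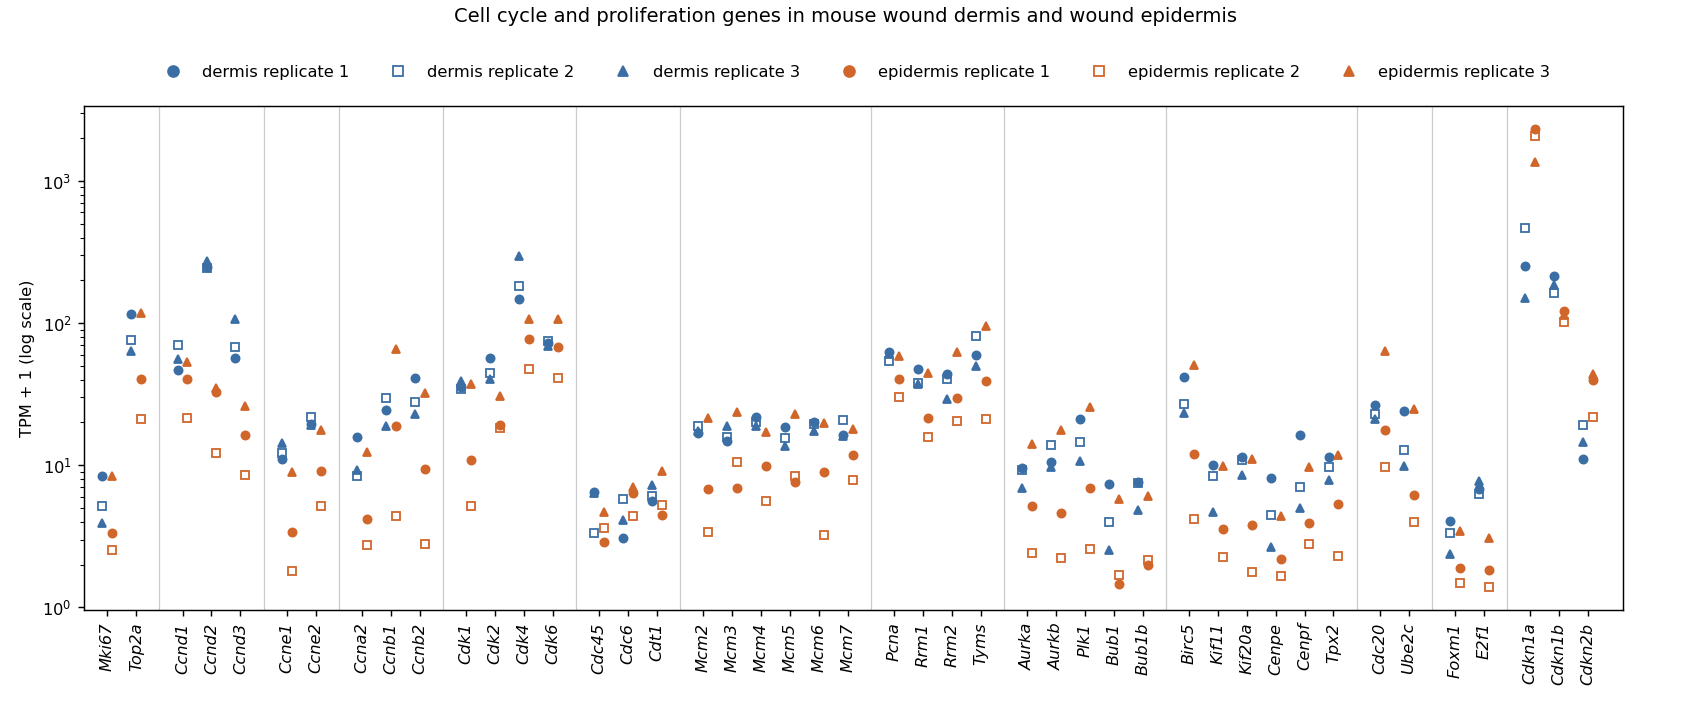
TPM + 1 on a log axis for each of the 45 genes in the 6 mouse libraries, grouped by role from division markers on the left to inhibitors on the right, with 1 symbol per library. Epidermis replicate 2 (open orange squares) was the lowest of all 6 libraries for 36 genes and epidermis replicate 3 (orange triangles) the highest for 19, while Cdkn1a stood above every other gene in epidermis.

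**Figure D2:**
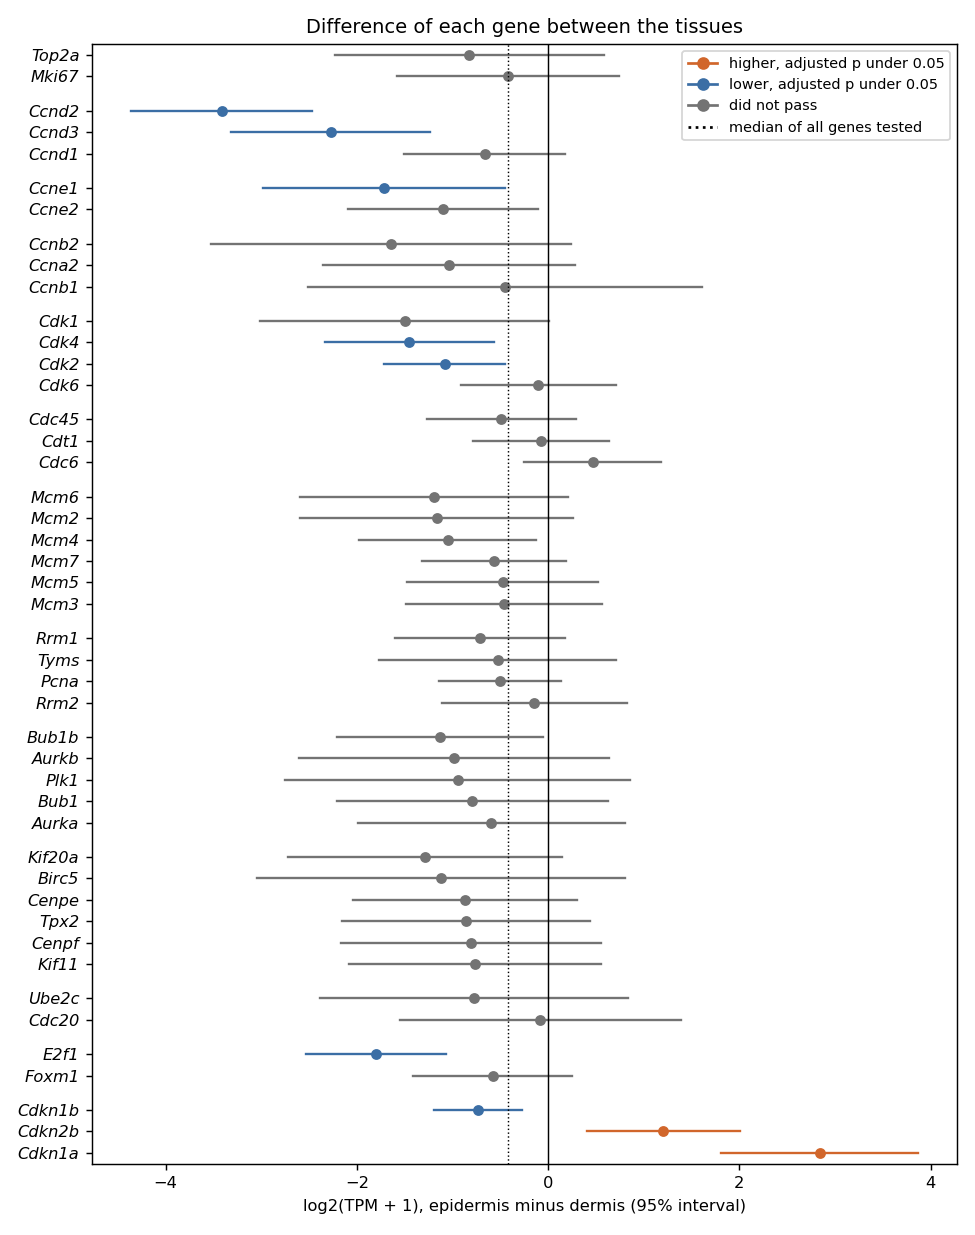
Difference in log2(TPM + 1) between epidermis and dermis for each gene (point) with its 95% interval from limma (line), 3 libraries per tissue. The dotted line is the median of all genes tested, -0.42; orange and blue mark the 2 genes that were higher and the 7 that were lower, and grey marks the 36 that did not pass.

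The D-type cyclins, which couple growth signals to the cycle, held the gene with the largest fall. Ccnd2 stood at 246, 245 and 272 TPM in dermis replicates 1 to 3 and at 31.6, 11.2 and 33.7 TPM in epidermis replicates 1 to 3. All 3 dermis libraries were far above all 3 epidermis libraries, a log2 difference of -3.41 ± 0.40 (SE, limma adjusted p = 0.000465), or 10.6-fold on the scale of TPM + 1. Ccnd3 stood at 56.0, 66.3 and 106.2 TPM in dermis and 15.4, 7.47 and 25.3 TPM in epidermis, again without overlap (-2.27 ± 0.44, adjusted p = 0.00419). Ccnd1, the D cyclin best known as a target of mitogen signals, stood at 45.7, 68.7 and 54.5 TPM in dermis and 39.4, 20.3 and 52.0 TPM in epidermis. Its libraries overlapped and it did not pass (-0.66, 95% interval -1.50 to 0.18, adjusted p = 0.153).

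The make-up of the D cyclins differed between the tissues. It is a share within each library, so scaling a whole library by a common factor cannot move it. Ccnd2 made up 70.8%, 64.4% and 62.9% of the summed D cyclin TPM in the dermis libraries and 36.6%, 28.8% and 30.3% in the epidermis libraries. Ccnd1 made up 13.1%, 18.1% and 12.6% in dermis and 45.6%, 52.1% and 46.8% in epidermis, so the most abundant D cyclin was Ccnd2 in every dermis library and Ccnd1 in every epidermis library. Ccnd3 held 16.1% to 24.5% in dermis and 17.8% to 22.8% in epidermis, and those ranges overlapped. These shares were looked at after the values of the 3 genes had been seen and were not tested. Summed over the 3 genes, D cyclin TPM was 348.0, 379.8 and 433.0 in dermis and 86.3, 39.0 and 110.9 in epidermis.

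Their partner kinases were lower in part. Cdk4 stood at 145.9, 182.7 and 295.5 TPM in dermis and 75.7, 46.8 and 105.6 TPM in epidermis, without overlap (-1.45 ± 0.38, adjusted p = 0.0138). Without dermis replicate 3, its highest library, the difference was -1.17. Cdk4 then missed the threshold with the filter applied anew (adjusted p = 0.0509) and passed with the tested genes held fixed (adjusted p = 0.0456). It also missed the threshold without both libraries numbered 2 (adjusted p = 0.0503). Cdk6, which binds the same cyclins, stood at 71.2, 74.1 and 67.7 TPM in dermis and 67.2, 40.0 and 106.7 TPM in epidermis. Epidermis replicate 3 was the highest and epidermis replicate 2 the lowest of the 6, and the difference was -0.10 (95% interval -0.91 to 0.71, adjusted p = 0.818). Within each library Cdk4 was 2.05, 2.47 and 4.37 times as abundant as Cdk6 in dermis and 1.13, 1.17 and 0.99 times as abundant in epidermis. The nearest dermis and epidermis ratios thus did not overlap, and this ratio too was not tested.

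The cyclins and kinase of the entry into S phase were lower or near the threshold. Cdk2 stood at 56.1, 43.2 and 39.6 TPM in dermis and 18.3, 17.2 and 29.7 TPM in epidermis, without overlap (-1.08 ± 0.27, adjusted p = 0.0115). Without dermis replicate 1, its highest library, it missed the threshold with the filter applied anew (-0.94, adjusted p = 0.0513). It passed there with the tested genes held fixed (adjusted p = 0.0444). Without both libraries numbered 2 it missed the threshold (adjusted p = 0.0501), and it passed at -0.62 after median-of-ratios scaling (adjusted p = 0.048). Ccne1, cyclin E1, stood at 10.1, 11.3 and 13.3 TPM in dermis and 2.39, 0.81 and 7.92 TPM in epidermis. It passed with all 6 libraries (-1.72 ± 0.54, adjusted p = 0.0291), but it missed the threshold when any library other than epidermis replicate 3 was left out, with adjusted p between 0.0584 and 0.0877, and was called in 8 of 22 alternative fits. Ccne2, cyclin E2, had dermis libraries between 18.2 and 21.0 TPM and epidermis libraries at 8.05, 4.20 and 16.7 TPM. Those did not overlap either, yet Ccne2 did not pass (-1.10, adjusted p = 0.0594).

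With the values as deposited, the inhibitors were the only role in which any gene was higher in epidermis and passed. Cdkn1a, which encodes p21, a p53 target that blocks cyclin-dependent kinases, stood at 251.8, 468.7 and 150.1 TPM in dermis and 2325, 2081 and 1360.4 TPM in epidermis. Every epidermis library was above every dermis library, a log2 difference of 2.84 ± 0.44 (adjusted p = 0.00157), or 7.16-fold on the scale of TPM + 1. It was the most abundant of the 45 genes in epidermis and made up 75.7%, 82.0% and 48.6% of their summed TPM there, against 13.4%, 23.3% and 8.51% in dermis. Cdkn2b, which encodes p15, an inhibitor of Cdk4 and Cdk6, stood at 9.99, 18.3 and 13.6 TPM in dermis and 38.5, 20.8 and 43.1 TPM in epidermis (1.21 ± 0.34, adjusted p = 0.0192). The gap between its nearest libraries was small, 18.3 against 20.8 TPM, and it was called in 14 of 22 alternative fits. Without dermis replicate 1 or 3 or epidermis replicate 1 or 3 its adjusted p was 0.0754, 0.0584, 0.0677 and 0.0562.

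Cdkn1b, which encodes p27, an inhibitor that is often high in resting cells, went the other way. It stood at 213.9, 162.7 and 183.5 TPM in dermis and 119.8, 101.3 and 112.7 TPM in epidermis, with little spread within epidermis and no overlap (-0.74 ± 0.20, adjusted p = 0.0153). The median of all genes was -0.42, and after median-of-ratios scaling Cdkn1b stood at -0.27 and did not pass (adjusted p = 0.259). With the filter applied anew, it also missed the threshold without dermis replicate 1 (adjusted p = 0.065) or 3 (adjusted p = 0.0564). With the tested genes held fixed, it missed without dermis replicate 1 (adjusted p = 0.0522) and passed without dermis replicate 3 (adjusted p = 0.045). Within each library Cdkn1a was 1.18, 2.88 and 0.82 times as abundant as Cdkn1b in dermis, and 19.4, 20.5 and 12.1 times in epidermis. The 3 inhibitors thus did not move as a block: 2 were higher, 1 was lower.

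The transcription factors were the least abundant role. E2f1, the factor that the retinoblastoma protein restrains, stood at 5.81, 5.25 and 6.77 TPM in dermis and 0.84, 0.39 and 2.07 TPM in epidermis. The tissues did not overlap and E2f1 passed in each of 22 alternative fits (-1.80 ± 0.31, adjusted p = 0.00255). Foxm1, which drives late cell cycle genes, stood at 3.02, 2.34 and 1.38 TPM in dermis and 0.88, 0.49 and 2.42 TPM in epidermis. It did not pass (-0.58, adjusted p = 0.198), and epidermis replicate 3 lay within the dermis range.

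None of the 13 replication genes passed, and 12 of them lay below 0, with a median of -0.50, but after median-of-ratios scaling or quantile normalization 10 and 7 did, with medians of -0.06 and -0.10. The Mcm2 to Mcm7 genes encode the ring-shaped helicase that unwinds DNA, and their log2 differences ran from -1.20 for Mcm6 to -0.46 for Mcm3. Mcm2 stood at 15.8, 18.0 and 16.5 TPM in dermis and 5.78, 2.41 and 20.5 TPM in epidermis. Mcm6 stood at 19.3, 18.4 and 16.4 TPM in dermis and 7.95, 2.22 and 18.8 TPM in epidermis. In both, epidermis replicates 1 and 2 were below every dermis library and epidermis replicate 3 reached or passed the dermis level. Mcm4 was the 1 replication gene without overlap, with dermis libraries of 17.9 to 21.0 TPM and epidermis libraries of 8.93, 4.57 and 16.0 TPM, but it missed the threshold (-1.05, adjusted p = 0.0538).

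The genes that load and fire replication origins lay on both sides of 0 as deposited, and all 3 lay above 0 after quantile normalization. Cdc6, which loads the helicase, was the 1 gene that lay above 0 and did not pass, at 2.09, 4.82 and 3.12 TPM in dermis and 5.34, 3.40 and 5.98 TPM in epidermis (0.47, adjusted p = 0.229). It passed as higher after median-of-ratios scaling (0.83, adjusted p = 0.0297) or quantile normalization (1.19, adjusted p = 0.0071). Cdt1, its partner, stood at 4.62 to 6.28 TPM in dermis and 3.46 to 8.06 TPM in epidermis (-0.08, adjusted p = 0.847), and Cdc45, which activates the helicase, at -0.49 (adjusted p = 0.241). Cdt1 shares its strand with an overlapping gene model, Gm20388, at 20.1 to 24.9 TPM in dermis and 4.39 to 5.94 TPM in epidermis, so the split of reads between them is uncertain. Pcna, the sliding clamp of the polymerases, stood at 53.1 to 61.6 TPM in dermis and at 39.4, 29.2 and 57.9 TPM in epidermis (-0.50, adjusted p = 0.151). The nucleotide supply genes Rrm1, Rrm2 and Tyms lay at -0.71, -0.14 and -0.53. Rrm2, a subunit of ribonucleotide reductase, stood at 28.9, 19.6 and 61.2 TPM in epidermis and 28.3 to 42.8 TPM in dermis, and so its epidermis libraries lay on both sides of the dermis range.

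The 18 mitotic genes and division markers showed the widest spread within epidermis, and 0 of the 18 passed. All 18 lay below 0, with a median of -0.84, and after median-of-ratios scaling or quantile normalization 17 and 15 did. Top2a, the topoisomerase that untangles chromosomes, was the most abundant of them, at 114.3, 75.6 and 62.1 TPM in dermis and 39.5, 20.1 and 117.1 TPM in epidermis (-0.82, 95% interval -2.23 to 0.59, adjusted p = 0.275). Epidermis replicate 3 was the highest of the 6 libraries and epidermis replicate 2 the lowest. Mki67, the gene of the Ki-67 antigen used to count dividing cells, was far less abundant, at 7.35, 4.16 and 2.91 TPM in dermis and 2.34, 1.52 and 7.39 TPM in epidermis (-0.42, 95% interval -1.57 to 0.74, adjusted p = 0.493). Top2a was 13.2 to 21.4 times as abundant as Mki67 in all 6 libraries. For both genes, epidermis replicate 3 matched or passed the highest dermis library.

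The mitotic cyclins and their kinase had the same order within epidermis, replicate 3 above 1 above 2, but among them Ccnb1 alone had its highest library in epidermis. Ccnb1, cyclin B1, had the widest epidermis range of the 45, at 17.7, 3.36 and 64.8 TPM, where dermis stood at 23.4, 28.5 and 18.0 TPM (-0.45, 95% interval -2.51 to 1.61, adjusted p = 0.681). Ccnb2, cyclin B2, stood at 39.8, 26.6 and 21.9 TPM in dermis and 8.46, 1.80 and 31.01 TPM in epidermis (-1.64, adjusted p = 0.119). Cdk1, their partner, stood at 34.6, 33.3 and 37.9 TPM in dermis and 9.90, 4.20 and 36.1 TPM in epidermis (-1.50 ± 0.64, adjusted p = 0.0832). In Cdk1 the 3 dermis libraries lay close together, and only the level of epidermis replicate 3 reached them. Ccna2, cyclin A2, lay at -1.04 (adjusted p = 0.152).

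Among the mitotic kinases and checkpoint genes, log2 differences ran from -1.13 for Bub1b to -0.59 for Aurka. Plk1, the Polo-like kinase needed for spindle assembly and exit from mitosis, stood at 20.0, 13.5 and 9.71 TPM in dermis and 5.95, 1.58 and 24.5 TPM in epidermis. Aurkb, the kinase of the chromosomal passenger complex, stood at 9.58, 12.8 and 8.72 TPM in dermis and 3.64, 1.23 and 16.7 TPM in epidermis. Birc5, its complex partner survivin, stood at 40.5, 26.0 and 22.4 TPM in dermis and 11.04, 3.21 and 49.6 TPM in epidermis. In all 3, replicate 3 was the highest epidermis library and lay above every dermis library. Bub1, a spindle checkpoint kinase, was among the rarest, at 1.52 to 6.35 TPM in dermis and 0.46, 0.69 and 4.80 TPM in epidermis.

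The 6 spindle, kinetochore and cytokinesis genes ran from -1.28 for Kif20a to -0.77 for Kif11. Kif20a, a kinesin of cytokinesis, overlaps Cdc23 on the other strand, which was lower in epidermis at 6.50 to 20.1 TPM against 66.9 to 73.6 TPM in dermis. Cenpe and Cenpf, large kinetochore proteins, also spread widely within dermis: Cenpf stood at 15.3, 6.03 and 4.01 TPM there and at 2.94, 1.81 and 8.68 TPM in epidermis. The spindle gene Tpx2 lay at -0.86 and Ube2c, the ubiquitin-conjugating enzyme of the anaphase-promoting complex, at -0.77. Cdc20, an activator of that complex, stood at 25.7, 22.1 and 20.1 TPM in dermis and 16.7, 8.79 and 62.5 TPM in epidermis (-0.08, adjusted p = 0.921). Cdc20 overlaps Elovl1 on the other strand, a lipid gene at 706.1 to 1056.1 TPM in epidermis and 90.4 to 320.3 TPM in dermis. No source used here states that counting used the strand, so reads from bases that the exons of such a pair share cannot be told apart. Overlap was judged on whole gene spans, introns included, and how far the exons overlap was not examined. In all, 15 of the 45 genes overlap another gene model that reached 1 TPM. They include Ccnd2, Ccnd3, Cdk2 and Cdk4, which passed, and Ccnd1. Tspan31, over Cdk4, stood at 72.9 to 118.95 TPM in dermis and 33.5 to 56.5 TPM in epidermis. LTO1, over Ccnd1, stood at 66.0 to 69.6 TPM and 16.5 to 38.5 TPM, and Gm43126, over Ccnd2, at 18.3 to 39.6 TPM and 1.82 to 3.30 TPM. The D cyclin shares and the ratio of Cdk4 to Cdk6 above carry this limit.

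One order of the epidermis libraries ran through the set: replicate 3 above replicate 1 above replicate 2. It held in 37 of the 45 genes (82.2%), against 40.5% of all genes tested, and in 16 of the 18 mitotic genes and division markers. Replicate 3 was the highest epidermis library in 43 of 45, against 52.1% of all genes tested, and the exceptions were Cdkn1a and Cdkn1b. After median-of-ratios scaling the order still held in 35 of 45 (77.8%), where all genes gave 23.5%, and after quantile normalization in 34 of 45 (75.6%), where all genes gave 22.2%. These rescaled orders were added after the data had been seen, and the members share libraries, so the shares are a description.

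The size of the spread differed by role. The highest epidermis library was a median of 3.33 times the lowest over the 45 genes, on TPM + 1, against 1.49 times in dermis. Over all genes tested those medians were 1.43 and 1.45. Among the 18 mitotic genes and division markers the median was 5.75 times in epidermis and 1.81 times in dermis. Among the 13 replication genes it was 3 times and 1.29 times. For the 3 inhibitors it was 1.71 and 1.76 times, and for the 3 genes of origin licensing and firing 1.63 and 1.88 times.

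Set against the dermis mean, the mitotic genes and division markers stood at a median of 36.4%, 17.8% and 136.0% in epidermis replicates 1 to 3. The dermis libraries stood at 135.6%, 92.2% and 74.2%. After median-of-ratios scaling the epidermis values were 48.9%, 28.7% and 165.5%. Replication genes stood at 51.5%, 50.04% and 122.2% in epidermis, and at 69.7%, 80.7% and 149.6% after that scaling, which placed replicate 2 above replicate 1. The median of the 3 D cyclins was 20.2%, 9.81% and 33.2% of the dermis mean, and Ccnd2 and Ccnd3 were low in all 3 epidermis libraries, while Ccnd1 in epidermis replicate 3 lay within the dermis range.

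**Figure D3:**
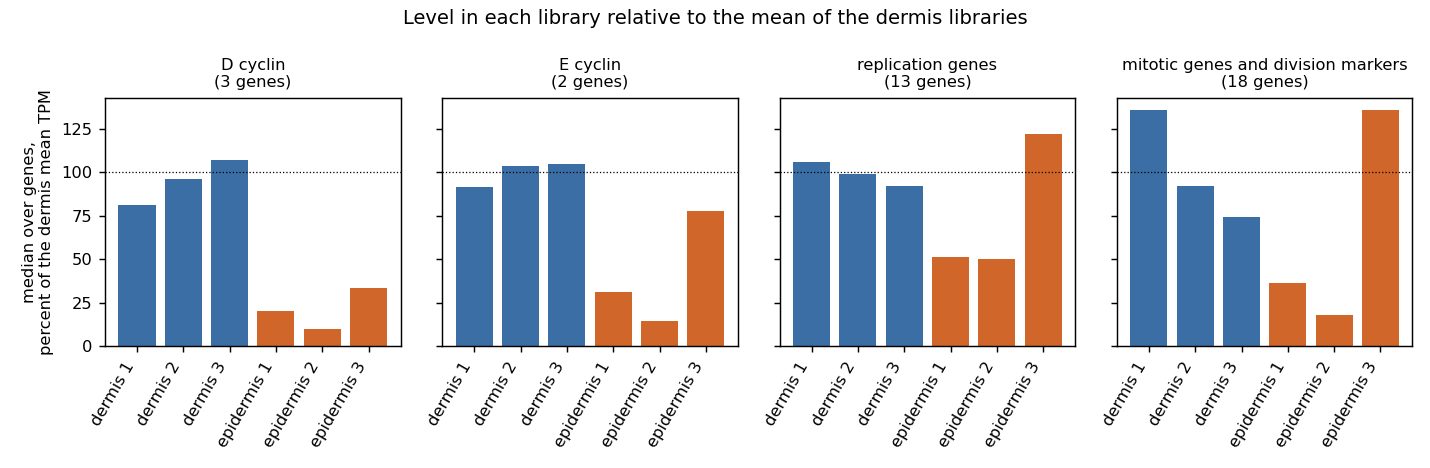
Median over the genes of 4 roles of the TPM in each library, in percent of that gene's mean over the 3 dermis libraries (dotted line at 100%), with bars from 0 in blue for dermis and orange for epidermis. The median of the D cyclins was at most 33.2% in the epidermis libraries, whereas mitotic genes stood at 36.4%, 17.8% and 136.0% in epidermis replicates 1 to 3.

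The count of lower genes rested on that library. Without epidermis replicate 3, 32 of the 45 genes were lower in epidermis (limma, adjusted p under 0.05), against 41.2% of the 15534 genes tested in that fit, and 1 was higher. The 32 included 13 of the 18 mitotic genes and division markers, 9 of the 13 replication genes and all 6 Mcm genes. Cdk1 then stood at -2.27 (adjusted p = 0.00294), Ccnb2 at -2.52 (adjusted p = 0.0103) and Top2a at -1.49 (adjusted p = 0.019), while Mki67 at -0.93 (adjusted p = 0.074) and Ccnb1 at -1.41 (adjusted p = 0.0929) still missed the threshold. With any other single library left out, 4 to 7 genes were lower. Without epidermis replicate 2, the lowest library, Ccnb1 stood at 0.55, Cdc20 at 0.51 and Top2a at -0.25, and 6 genes were lower.

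**Figure D4:**
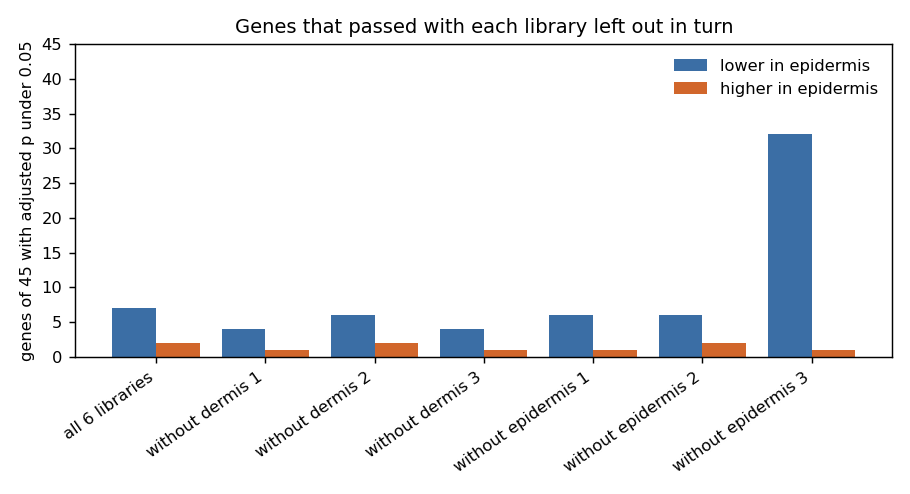
Number of the 45 genes that were lower (blue) or higher (orange) in epidermis at an adjusted p under 0.05 for all 6 libraries and for the 6 fits that leave 1 library out, with bars from 0. The count of lower genes was 7 with all libraries and 32 without epidermis replicate 3, and at most 6 without any other library when the filter was applied anew.

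Keratinocyte markers moved with the same libraries. Over 8 basal markers, of which 5 were higher in epidermis, the summed level was 9802, 6764 and 17730 TPM in epidermis replicates 1 to 3 and 1909, 3413 and 289.1 TPM in dermis, so the summed level had the order of the division genes within epidermis. Krt14 carried most of that sum, 5 of the 8 basal markers had the order on their own, and Krt15 and Col17a1 were highest in epidermis replicate 1. Over 8 differentiating markers the summed level was 69330, 96630 and 45470 TPM in epidermis, the opposite order. Cdkn1a, at 1360.4 TPM, was lowest in epidermis replicate 3, the library with the least of the differentiating markers. The orders differed otherwise, since Cdkn1a was highest in epidermis replicate 1 and the differentiating sum in epidermis replicate 2. Fibroblast markers, at 62.7, 23.3 and 123.5 TPM in epidermis against 44150 TPM or more in dermis, also stood in the order of the division genes. So did the sums of smooth muscle markers at 20.4, 4.46 and 28.1 TPM and of mast cell markers at 0.76, 0.36 and 1.45 TPM. On their own, 6 of 8 fibroblast, 3 of 6 smooth muscle and 1 of 5 mast cell markers had that order. Kit, at 0.52, 0.36 and 1.38 TPM, made up most of the mast cell sum. The macrophage sums, at 56.5, 75.5 and 67.5 TPM, did not have the order, though 4 of 7 macrophage markers did. Cd68, at 44.4, 68.5 and 52.9 TPM, made up most of the macrophage sum. Endothelial sums were 3.15 to 9.57 TPM in epidermis and were highest in replicate 2, while 4 of 6 endothelial markers had the order. T cell sums were 19.5, 22.5 and 45.1 TPM, and 5 of 6 tested T cell markers had the order. It held in 0 of 4 tested neutrophil markers and not in the 1 tested melanocyte marker, against 40.5% of all genes tested. The part of these cell types in the differences was not tested. The labels' protocols also list more than one RNA input and read length without saying which library had which, so their part was not tested.

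**Figure D5:**
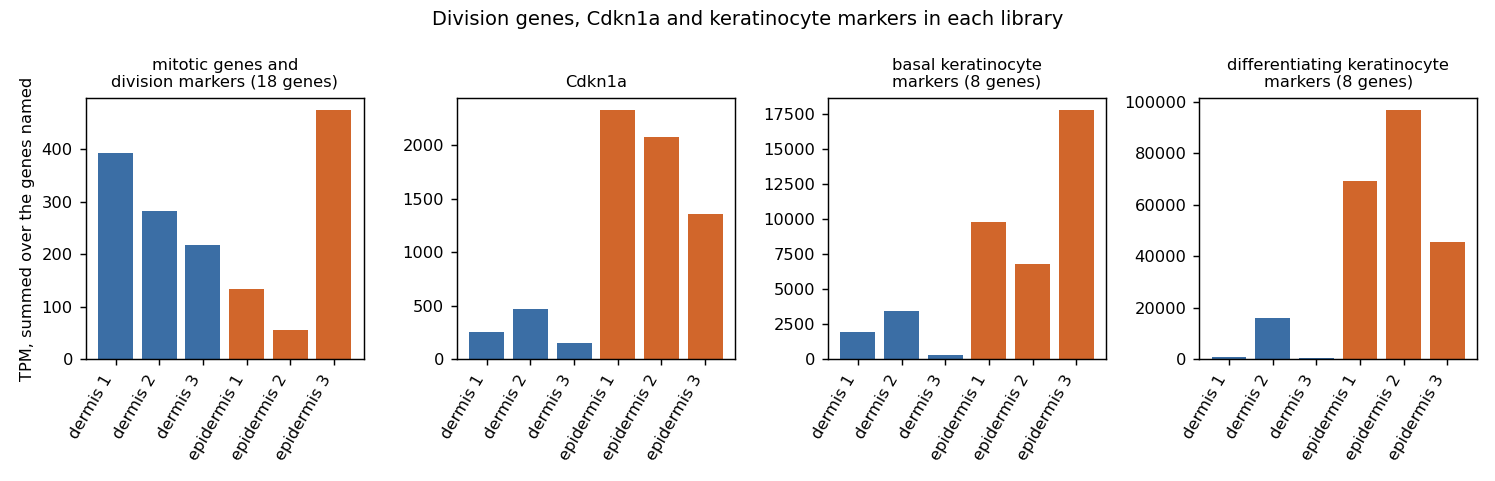
TPM in each library, summed over 18 mitotic genes and division markers, for Cdkn1a alone, and summed over 8 basal and 8 differentiating keratinocyte markers, with bars from 0 and a separate axis for each panel. Among the epidermis libraries, replicate 3 was highest for mitotic genes (473.7 TPM) and basal markers (17730 TPM) and lowest for Cdkn1a (1360.4 TPM) and differentiating markers (45470 TPM). Cdkn1a was highest in replicate 1 (2325 TPM) and the differentiating markers in replicate 2 (96630 TPM).

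Dermis replicate 2, with its keratinocyte transcripts, changed little for these genes. Without it 6 genes were lower and 2 higher, and the 1 call lost was that of Ccne1 (adjusted p = 0.0584). Cdkn1a was highest in that dermis library, at 468.7 TPM.

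A further 7 lists held 159 cell cycle genes, of which 154 were tested, 14 were higher and 39 lower in epidermis. Each count in these lists is read beside the 17% of all genes that were higher and the 39.3% that were lower, and both shares of the 154 were below those. Of 48 tested genes of G2 and mitosis 1 was higher and 4 were lower, where 39.3% of all genes were lower, with a median of -0.69, and 42 of the 48 (87.5%) had the epidermis order replicate 3, 1, 2. Their most abundant genes were Smc4 of the condensin complex (-0.85, adjusted p = 0.0813), Pttg1, the securin (-1.33, adjusted p = 0.215), and Cks1b (-0.95, adjusted p = 0.191). Pttg1 stood at 125.5, 89.0 and 57.6 TPM in dermis and 34.9, 8.58 and 120.5 TPM in epidermis, much as the mitotic genes above. Of 39 genes of S phase 2 were higher and 11 lower, with a median of -0.66. Rfc2, a clamp loader subunit, was lower (-1.41, adjusted p = 0.0111), and the histone mRNA binding gene Slbp (-0.47) and the DNA methyltransferase gene Dnmt1 (-0.17) did not pass.

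The core of the anaphase-promoting complex, which resting cells also make, held the largest share of lower genes among the 7 lists. Of its 15 core and regulatory genes 10 were lower and 0 higher, where 39.3% of all genes were lower and 17% higher, with a median of -0.78. Anapc5 was lower at 48.5 to 79.3 TPM in epidermis against 174.8 to 207.9 TPM in dermis (-1.46, adjusted p = 0.00239), Ube2s was lower (-1.31, adjusted p = 0.0437), and Anapc13 stood at 0.14 (adjusted p = 0.569). Of 18 genes of pocket proteins, E2F, MuvB and Myb 1 was higher and 5 lower. Rbbp4 was lower (-0.62, adjusted p = 0.0408), while E2f4 (-0.02) and Lin37 (-0.17) did not pass. Of 9 checkpoint genes 1 was higher and 2 lower: Atrip, a partner of the kinase Atr, was the higher one (0.93, adjusted p = 0.0182), Chek2 stood at -0.83 (adjusted p = 0.0766) and Topbp1 at 0.09.

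Of 11 tested further inhibitors, p53 targets and p53 regulators 2 were higher and 3 lower, against 17% and 39.3% of all genes, and 6 did not pass. Cdkn1c, which encodes p57, stood at 167.7, 164.5 and 418.9 TPM in dermis and 1.63, 0.37 and 1.03 TPM in epidermis, the largest difference of any inhibitor here (-6.87, adjusted p = 2.59e-05). Btg2, an antiproliferative p53 target, stood at 559.9, 547.0 and 289.9 TPM in dermis and 1627, 1348 and 1197 TPM in epidermis (1.63, adjusted p = 0.00406). Trp53 itself did not pass (-0.78, adjusted p = 0.0557). Of 14 tested mitogen and immediate early genes 7 were higher and 4 lower. Jun was higher (1.10, adjusted p = 0.00745) and Fos did not pass (0.81, adjusted p = 0.101). The growth factor gene Igf1 was lower, at 243.3 to 619.8 TPM in dermis and 0.04 to 0.50 TPM in epidermis (-8.23, adjusted p = 1.15e-05).

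Promoter letters known for cell cycle genes were looked up for the genes of the set. The promoters available here were those of rat, from RefSeq on build GRCr8, and 32 of the 45 genes had an entry under the same symbol. On both strands of the 250 bases before the start site, the CCAAT box (CCAAT) was found in 68.8% of the 32, against 34.0% of all 33469 promoters in the table. The cell cycle homology region (TTTGAA or TTCGAA) was found in 34.4% against 17.4%, and an E2F motif (TTTGGCGC, TTTCGCGC, TTTCCCGC or TTTGCCGC) in 18.8% against 1.73%. The E2F letters were found in 5 of the 10 replication genes with an entry and in 0 of the 14 mitotic genes and division markers, while 78.6% of the latter held CCAAT. All 3 kinds were found for Cdk1 and Mcm7, 6.25% of the 32 against 0.0956% of all promoters. A match describes letters in a rat sequence and shows neither binding nor a cause of the mouse values. The 3 sequences below have the most kinds of motif or, for Top2a, the highest level among the next, and capitals mark the motif letters on either strand.
Cdk1: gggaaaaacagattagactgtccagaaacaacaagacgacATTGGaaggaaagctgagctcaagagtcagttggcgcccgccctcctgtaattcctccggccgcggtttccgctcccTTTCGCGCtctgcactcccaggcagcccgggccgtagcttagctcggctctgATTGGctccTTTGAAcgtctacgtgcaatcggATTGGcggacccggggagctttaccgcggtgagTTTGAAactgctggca
Mcm7: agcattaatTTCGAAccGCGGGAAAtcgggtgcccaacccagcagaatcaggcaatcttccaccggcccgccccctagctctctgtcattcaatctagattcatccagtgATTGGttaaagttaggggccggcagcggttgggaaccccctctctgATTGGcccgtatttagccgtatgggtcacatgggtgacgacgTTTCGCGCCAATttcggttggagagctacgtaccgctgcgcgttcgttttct
Top2a: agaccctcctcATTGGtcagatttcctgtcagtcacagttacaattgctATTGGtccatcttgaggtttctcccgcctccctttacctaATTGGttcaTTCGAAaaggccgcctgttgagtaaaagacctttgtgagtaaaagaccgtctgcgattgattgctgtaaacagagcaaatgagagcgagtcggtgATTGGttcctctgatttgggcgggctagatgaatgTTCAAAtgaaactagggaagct
They lie at chr20:19265043-19265292 on the plus strand for Cdk1, chr12:22163179-22163428 on the minus strand for Mcm7 and chr10:84473094-84473343 on the minus strand for Top2a. Cdk1 holds the homology letters 72 and 16 bases before its start site, between and after CCAAT boxes at 81 and 49 bases. Top2a holds 4 CCAAT boxes and no E2F letters. In Mcm7 an E2F match that begins 52 bases before the start overlaps a CCAAT match that begins at 45 bases.

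The 9 genes that passed are protein-coding, and their positions are given on mm10 (GENCODE annotation, 1-based). Ccnd2 lies at chr6:127125162-127152193 and Cdkn1b at chr6:134920401-134925513, Cdk2 at chr10:128697939-128705031 and Cdk4 at chr10:127063534-127067920. Ccnd3 lies at chr17:47505051-47599691 and Cdkn1a at chr17:29090976-29100727. Ccne1 lies at chr7:38097984-38107534, E2f1 at chr2:154559407-154569892 and Cdkn2b at chr4:89306299-89311039.

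Scaling moved the level of the whole table and the genes here moved with it. After median-of-ratios scaling the median of all genes was -0.01 and that of the 45 was -0.41, and after quantile normalization they were 0.08 and -0.29. The median of the 45 minus that of all genes was -0.37 as deposited, -0.40 once scaled by median of ratios and -0.37 once quantile normalized. That offset depended on single epidermis libraries. It was 0.02 without epidermis replicate 2, -0.01 without both libraries numbered 2 and -0.82 without epidermis replicate 3. The median-of-ratios fit placed 38 of the 45 below 0, and higher genes made up 48.3% of all called genes there. The quantile-normalized fit gave 32 and 52.8%, and the share of higher genes was 30.2% as deposited. Ccnd2, Ccnd3, E2f1 and Cdkn1a passed in all 22 alternative fits, Cdk2 and Cdk4 in 20 and Cdkn1b in 18.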

How the data were processed

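RNA of 6 mouse libraries, 3 of wound dermis and 3 of wound epidermis, was analysed. The deposited table gives TPM per gene and library, as the authors made it. The submitters' processing notes name Bowtie 1.0.0, RSEM 1.2.31 and the builds mm10 and Rnor_6.0, with roles, settings and annotation not given in the sources used here. TPM keeps no depth, so precision rests on the 3 libraries per tissue. The 12 rat libraries were not analysed here, because the tables used here do not pair their identifiers with names. No other value column was left unused (0).

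Of 49548 mouse identifiers 49289 were paired with a symbol. Genes that reached 1 TPM in 3 or more libraries entered a linear model of log2(TPM + 1) in limma 3.58.1 (R 4.3.3) with a mean-variance trend, and p-values were adjusted over all 15982 genes by the Benjamini-Hochberg method, with a threshold of 0.05. The script was tested on simulated data. The rule for naming took all 45 genes and, of each list of other cell cycle genes, the 3 with the highest mean TPM. The genes, the lists and the tests were chosen with earlier results of these data known. Alternatives were other pseudocounts, filters and scalings, a fit without the trend, a replicate block, and each library left out in turn, with the filter applied anew or the tested genes held fixed. Leaving out both libraries numbered 2 together, and the library orders after rescaling, were added after seeing the data.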

Additional observations from a re-analysis of the deposited data

How the results depend on the processing

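Over the 45 genes and 22 alternative fits, 858 values kept their direction and side of the threshold, 56 newly passed, 30 no longer passed and 40 changed sign. With each library left out in turn, 5288 to 8714 genes of the table were called (5288 without dermis replicate 3 and 5427 without dermis replicate 1, where fewer genes were tested), 1 to 2 of the 45 were higher and 4 to 32 lower. The count of lower genes was 32 without epidermis replicate 3. It was 4 without dermis replicate 1 or 3 with the filter applied anew, and 5 and 6 with the tested genes held fixed. With both libraries numbered 2 left out, which was chosen after seeing the data, 3 of the 45 were higher and 4 lower. No gene that passed as deposited changed sign. After median-of-ratios scaling Cdk6 stood at 0.37, Cdt1 at 0.32, Rrm2 at 0.32 and Cdc20 at 0.37. After quantile normalization Mki67 stood at 0.29, Cdk6 at 0.094, Cdc45 at 0.27, Cdt1 at 0.61, Mcm3 at 0.037, Mcm5 at 0.023, Rrm2 at 0.14, Aurka at 0.046, Cdc20 at 0.30 and Foxm1 at 0.22. With both libraries numbered 2 left out, Ccnb1 stood at 0.70, Cdk6 at 0.28, Rrm2 at 0.27, Tyms at 0.18, Aurka at 0.081 and Cdc20 at 0.50. With single libraries left out, Ccnb1 ranged from -1.41 to 0.55, Cdk6 from -0.44 to 0.25, Cdt1 from -0.38 to 0.14, Rrm2 from -0.58 to 0.21, Aurka from -1.26 to 0.02 and Cdc20 from -0.84 to 0.51. The cause of these sign changes was not tested. Without the 50 most abundant genes Ccne2 (adjusted p = 0.044) and Mcm4 (adjusted p = 0.0402) were also lower, 9 genes in all. With a replicate block 8404 genes of the table were called, against 8996, and the same 9 of the 45 passed, 2 higher and 7 lower. The labels give both tissues the numbers 1 to 3, but the deviations of same-numbered libraries correlated at -0.13, 0.09 and 0.19 and 1 of 3 epidermis libraries correlated best with its own number, so the numbers were not taken as pairs. No read depth is known, so no limit of detection can be given for genes near 1 TPM, such as E2f1, Foxm1 and Bub1.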
